A study of Mus musculus with 778 samples.

Results

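The *Tcl1* gene cluster was followed through the growth of the mouse oocyte in single-cell RNA-seq data. Its members were the rows of the count table named *Tcl1*, *Tcl1b1*, *Tcl1b2*, *Tcl1b3*, *Tcl1b4* and *Tcl1b5*, which are 6 of the 23201 genes counted. All 6 were in the table and all 6 were measured in every stage. They were taken by name, and the rule used no threshold on a measured value.

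Proteins of the TCL1 family are small and bind the kinase AKT, whose activity they promote. *TCL1* was found as an oncogene of human T-cell leukaemia, where a chromosomal rearrangement switches it on, while in the mouse the family is best known for its RNA in oocytes, early embryos and embryonic stem cells. AKT acts downstream of PI3-kinase and, in the oocyte, controls the FOXO transcription factors that hold primordial follicles at rest.

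Single oocytes of wild-type female ICR mice, an outbred strain, were picked by hand in 5 stages set by diameter. Non-growing oocytes (NGO) were under 20 μm wide and came from mice of 3 to 4 days of age. Growing oocytes of 30 to 45 μm (GO1), 50 to 55 μm (GO2) and 60 to 65 μm (GO3), and fully-grown oocytes over 70 μm (FGO), came from mice of 3 to 4 weeks, so mouse age and oocyte growth cannot be told apart where NGO is compared with a later stage. No treatment or genetic change was made in any group. Molecules were tagged at random before amplification, and the tags (unique molecular identifiers, UMIs) let copies of the same molecule be counted once. The levels below are UMIs of a gene per 1000000 UMIs (CPM), either in the sum of all cells of a stage or in each cell. A CPM is a share of the RNA counted and does not follow how much RNA an oocyte holds.

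The table held 223 cells, namely 46 NGO, 51 GO1, 26 GO2, 44 GO3 and 56 FGO cells, and no cell had the same counts as another. The cells came from 4 libraries, but their names give only the stage and a cell number. Each stage was therefore 1 pooled sample, and no test between stages was possible. A gene was called higher or lower where the summed CPM of 2 stages were 2-fold or more apart and the larger of them was at least 10, and intervals cover counting error only, at 95%. Sequencing depth was uneven, from 22279 to 3898137 UMIs per cell in GO1, and the 10 deepest cells held 80.4% of the UMIs of GO1 and 73.2% of those of GO2 against 42.6% to 49.7% in the other stages. Sums over GO1 and GO2 therefore rest on few cells, and means over cells are given beside them where they differ. All 8 oocyte markers (*Zp1*, *Zp2*, *Zp3*, *Gdf9*, *Bmp15*, *Dazl*, *Ddx4* and *Oosp1*) were above 10 CPM in every stage, and their sum was between 13172 CPM in GO1 and 24349 CPM in NGO. The 9 granulosa markers summed to 9.21 to 29.5 CPM, the 6 markers of stroma and theca to 0.462 to 7.74 CPM, and the 4 haemoglobin genes were at 0. *Cyp19a1*, the aromatase of granulosa cells, was the only granulosa marker to reach 10 CPM, at 16.3 CPM in GO1 and 13.3 CPM in GO2.

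The 6 genes lie side by side on chromosome 12 (NCBIM37, positions from the GENCODE vM1 annotation). *Tcl1b2* spans chr12:106384224-106393435, *Tcl1b1* chr12:106397900-106404832, *Tcl1b5* chr12:106414568-106419353, *Tcl1b3* chr12:106429070-106433820 and *Tcl1b4* chr12:106440167-106445203, all on the plus strand. *Tcl1* closes the row on the minus strand, at chr12:106454967-106460947, and so faces the 5 *Tcl1b* genes. The whole cluster takes 76724 bases, with 4464 to 9763 bases between neighbouring genes and no other annotated gene inside.

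The stretches just before the start sites are shown because they set the 5 *Tcl1b* genes apart from *Tcl1* in sequence. They are the 120 bases before the RefSeq start of each gene (table of build GRCm38.p6), each found at 1 place of NCBIM37 chromosome 12 by exact match. That place was chr12:106385109-106385228 for *Tcl1b2*, chr12:106397794-106397913 for *Tcl1b1*, chr12:106414434-106414553 for *Tcl1b5*, chr12:106429135-106429254 for *Tcl1b3*, chr12:106440485-106440604 for *Tcl1b4* and chr12:106460948-106461067 for *Tcl1*. The stretches of *Tcl1b2*, *Tcl1b3* and *Tcl1b4* lie inside the GENCODE spans given above, and that of *Tcl1b1* reaches into its span. The 2 annotations thus differ in the start of these genes, and the positions below hold for the RefSeq start only. Capitals mark CACCTG, an E-box letter order, and its reverse complement CAGGTG. Sequences run 5′ to 3′ along the strand of the gene.
Tcl1b2: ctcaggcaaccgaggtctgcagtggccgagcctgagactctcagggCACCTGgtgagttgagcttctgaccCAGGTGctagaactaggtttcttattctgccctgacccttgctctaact
Tcl1b1: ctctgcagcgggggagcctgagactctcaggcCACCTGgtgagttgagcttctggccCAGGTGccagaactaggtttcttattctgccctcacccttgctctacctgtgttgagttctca
Tcl1b5: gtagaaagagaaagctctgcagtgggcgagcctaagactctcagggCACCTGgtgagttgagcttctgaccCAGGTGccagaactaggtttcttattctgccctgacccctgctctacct
Tcl1b3: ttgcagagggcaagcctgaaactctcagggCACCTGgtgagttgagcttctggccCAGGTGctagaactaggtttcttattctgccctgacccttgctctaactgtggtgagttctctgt
Tcl1b4: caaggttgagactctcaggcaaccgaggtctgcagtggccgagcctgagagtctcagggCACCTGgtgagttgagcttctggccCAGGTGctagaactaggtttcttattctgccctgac
Tcl1: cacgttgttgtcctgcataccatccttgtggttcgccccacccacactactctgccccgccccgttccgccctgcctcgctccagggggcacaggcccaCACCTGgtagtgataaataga
In each *Tcl1b* stretch the motif occurred 2 times, with starts 25 bases apart and in the same order. Counted back from the start site, the pair began at -74 and -49 in *Tcl1b2* and *Tcl1b5*, at -88 and -63 in *Tcl1b1*, at -90 and -65 in *Tcl1b3* and at -61 and -36 in *Tcl1b4*. The *Tcl1* stretch held a single copy at -21. The motif was chosen after the 6 sequences had been seen. Over all 32851 promoter stretches of the same length in the RefSeq table, 8.43% held the motif on either strand, 0.530% held it at least 2 times, and the pair with starts 25 bases apart was found in 5, the *Tcl1b* genes themselves. The *Tcl1b* stretches were 57.05% to 88.4% identical to each other, against 40.7% to 44.5% between *Tcl1* and a *Tcl1b* gene, so a shared motif is also part of a wider shared sequence. A match of letters is a description and does not show that a factor binds there. A link of these stretches to the levels below was not tested.

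The same division was present in the coding sequences. The 10 pairs of *Tcl1b* genes were 71.4% to 86.3% identical over the coding bases and 47.5% to 71.3% over the amino acids. *Tcl1* matched a *Tcl1b* gene at 49.6% to 51.9% of coding bases and 23.2% to 26.4% of amino acids. *Tcl1b3* and *Tcl1b5* were the closest pair in protein. Because close copies can share reads, every 50-base window of the transcripts was compared between members. Of these windows, 34.2% of *Tcl1b3*, 29.04% of *Tcl1b2*, 20.9% of *Tcl1b5*, 13.1% of *Tcl1b1* and 4.07% of *Tcl1b4* had an exact copy in another member, and none of *Tcl1*. Within the last 500 bases the share reached 55.4% for *Tcl1b3* and 46.1% for *Tcl1b2*. With 100-base windows over the whole transcript it was 9.11% for *Tcl1b3*, 8.55% for *Tcl1b2*, 1.49% for *Tcl1b5* and 0.107% for *Tcl1b1*. No such window of *Tcl1b4* or *Tcl1* had a copy. How shared reads were assigned is not given in the sources used here, so the split of counts among *Tcl1b2*, *Tcl1b3* and *Tcl1b5* is uncertain. *Tcl1* and the sum of the 5 *Tcl1b* genes do not depend on a split within the family. The sum could still be too low if shared reads were left out, and windows were not compared with genes outside the cluster.

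**Figure D1:**
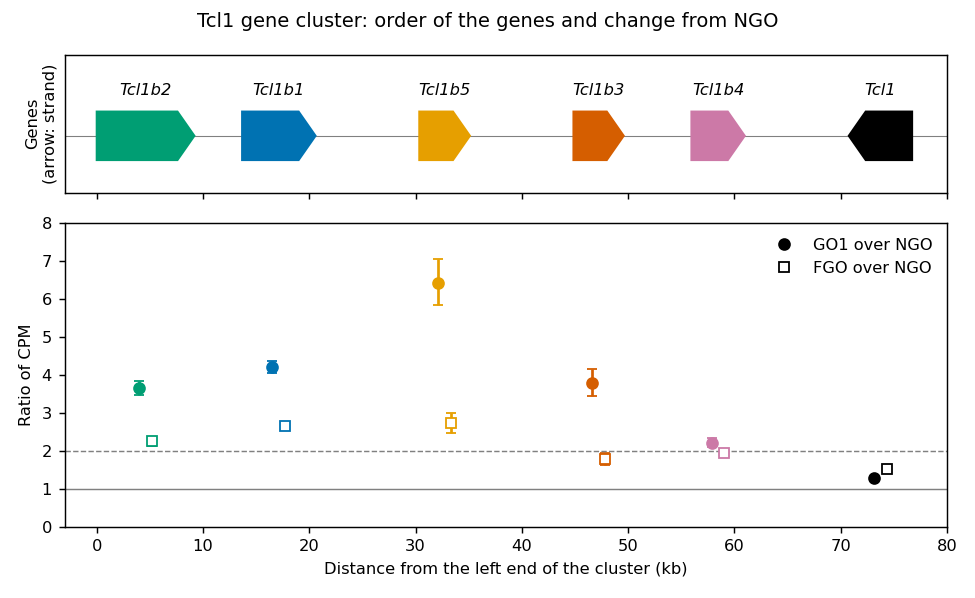
Order of the genes along the cluster, with distance from its left end in kb on the x axis and arrows for the strand (upper panel), and the ratio of the summed CPM of GO1 (filled circles) or FGO (open squares) to NGO for each gene (lower panel, linear axis; bars are 95% counting intervals, lines mark ratios of 1 and 2). The 5 *Tcl1b* genes lie above 2 in GO1, led by *Tcl1b5* at 6.41, while *Tcl1* at the right end is at 1.29.

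*Tcl1* was among the most abundant RNAs of the oocyte in every stage. From NGO to FGO its summed level was 2384, 3075, 4160, 3543 and 3634 CPM. By CPM it ranked 28, 25, 16, 18 and 17 in these stages among the 23201 genes. Per kilobase of transcript, its ranks were 26, 22, 15, 19 and 15 among the 18796 genes with a coding transcript length. Those genes included 89.1% of the genes that reached 10 CPM. The *Tcl1b* genes were also all present but lower. Per kilobase, the order within the cluster was *Tcl1*, *Tcl1b1*, *Tcl1b2* and *Tcl1b4* in every stage. *Tcl1b3* and then *Tcl1b5* followed in NGO, and *Tcl1b5* and then *Tcl1b3* in the other stages. The order by CPM, without division by length, was the same. In NGO the levels per kilobase were 1714 CPM for *Tcl1*, 143.7 for *Tcl1b1*, 67.2 for *Tcl1b2*, 65.1 for *Tcl1b4*, 21.4 for *Tcl1b3* and 18.7 for *Tcl1b5*. *Tcl1b2* and *Tcl1b4*, and *Tcl1b3* and *Tcl1b5*, were thus neighbours in this order whose ranges over the NGO cells overlapped almost entirely. In GO1 *Tcl1* was at 2211 CPM per kilobase, *Tcl1b1* at 603.9, *Tcl1b2* at 245.8, *Tcl1b4* at 144.2, *Tcl1b5* at 119.98 and *Tcl1b3* at 81.2.

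From NGO to GO1, the step in which oocytes enter growth, the 5 *Tcl1b* genes rose together. Their summed CPM went from 330.6 to 1250, a ratio of 3.78 (95% counting interval 3.69 to 3.87). In the sums *Tcl1b5* rose most, from 19.4 to 124.7 CPM, with a ratio of 6.41 (5.83 to 7.06). *Tcl1b1*, the most abundant of the 5, rose from 149.02 to 626 CPM, with a ratio of 4.20 (4.06 to 4.36). *Tcl1b3* (22.3 to 84.7 CPM) and *Tcl1b2* (72.7 to 266.0 CPM) rose 3.79-fold and 3.66-fold, and *Tcl1b4*, the gene next to *Tcl1*, rose least, from 67.1 to 148.7 CPM or 2.22-fold (2.09 to 2.35). In all, 5 of 6 members were called higher in GO1 and 0 lower, where 20.6% of the 8527 genes that passed the 10 CPM minimum were called higher and 25.7% lower. The median log2 ratio of the 6 members was 1.90, against -0.15 over those 8527 genes. In cells thinned to 20000 UMIs *Tcl1b3* rose most, 7.94-fold, ahead of *Tcl1b5* at 6.85-fold. The thinned NGO level of *Tcl1b3* was only 10.9 CPM, from a single random draw with a UMI in 9 of 46 cells. Its ratio was 3.83 to 4.93 in the other alternative settings. With a single pool per stage these counts carry no replicate check.

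The rise was visible in single oocytes. The summed CPM of the 5 *Tcl1b* genes had its lowest, median and highest value at 112.96, 310.0 and 558.0 over the 46 NGO cells and at 433.3, 1241 and 2052 over the 51 GO1 cells. Of the GO1 cells, 46 were above the highest NGO cell, and the 2 stages overlapped only in the remaining 5. By cell number these were GO1_sc41 to GO1_sc44 and GO1_sc48, a run seen after the values were known. What the order of the cell numbers stands for is not given in the sources used here. *Tcl1b1* ran from 36.996 over 138.2 to 278.2 CPM in NGO and from 20.6 over 645.2 to 1571 CPM in GO1, where 45 cells were above every NGO cell and 1 cell was below all of them. *Tcl1b5* ran from 0 over 17.5 to 46.6 CPM in NGO and from 0 over 114.5 to 311.2 CPM in GO1, with 41 GO1 cells above every NGO cell. For *Tcl1b3* and *Tcl1b2* this held in 41 and 40 GO1 cells. *Tcl1b4* overlapped more, with 26 GO1 cells above its highest NGO cell at 129.8 CPM and 3 GO1 cells at 0. There were 6 GO1 cells without a UMI of *Tcl1b3*, 4 without *Tcl1b5* and 3 without *Tcl1b4*. These cells had 22279 to 42448 UMIs each, except 1 with 84725 UMIs that was at 0 for both *Tcl1b3* and *Tcl1b5*.

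*Tcl1* did not follow the *Tcl1b* genes in this step, and its direction depended on how the cells were weighted. In the sums it was 1.29 times as high in GO1 as in NGO (95% counting interval 1.28 to 1.30), under the 2-fold limit. As the mean over cells it was lower in GO1, at 1781 ± 957 CPM (SD, 51 cells) against 2300 ± 715 CPM (SD, 46 cells), a ratio of 0.775. In 4 of 7 alternative settings (mean, median, thinned cells and sums without the 10 deepest cells) *Tcl1* was lower in GO1, and the ratios of the 7 ran from 0.708 to 1.44. The lowest, median and highest NGO cells had 1237, 2179 and 4868 CPM, and the GO1 cells 474.6, 1542 and 4088 CPM. The GO1 range was shifted down at both ends, with 17 of 51 cells below the lowest NGO cell and none above the highest. The cells GO1_sc41 to GO1_sc49 and GO1_sc51 were among these 17. All 5 *Tcl1b* genes kept a ratio above 2 under the same 7 settings, the lowest being 2.08 for *Tcl1b4* as the mean over cells.

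**Figure D2:**
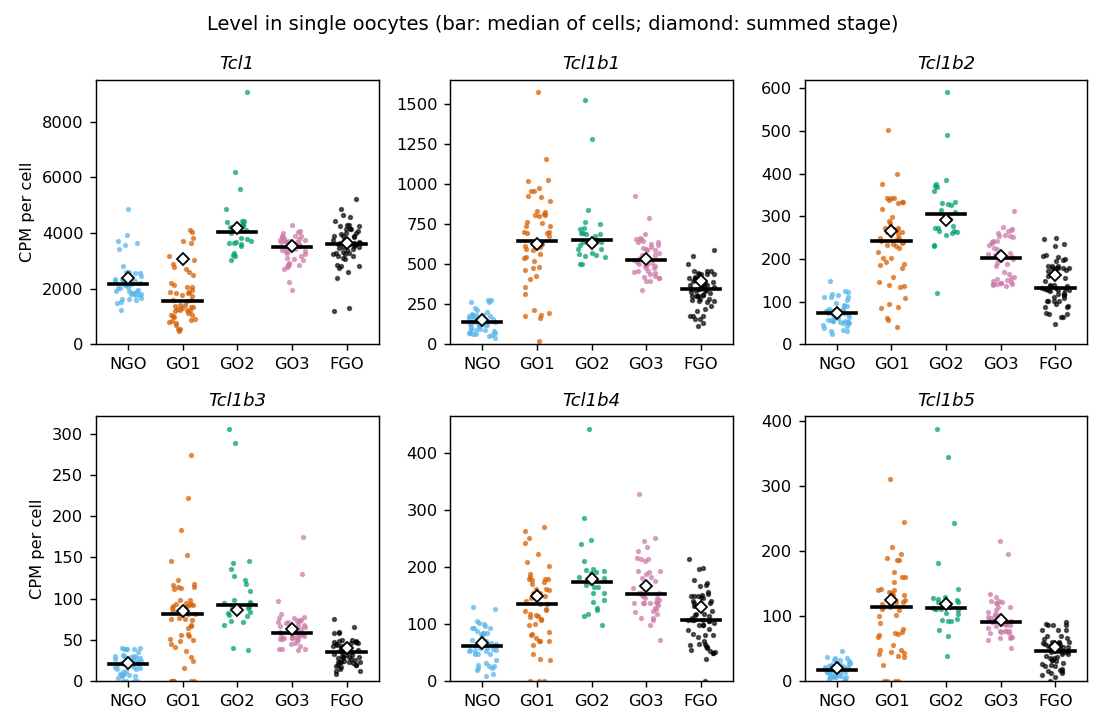
CPM in each oocyte (points; linear axes from 0, a scale of its own for each gene) by stage for the 6 genes, with the median over cells (bar) and the level of the summed stage (diamond). The *Tcl1b* genes step up from NGO to GO1 and come down by FGO, whereas the GO1 cells of *Tcl1* spread from 474.6 to 4088 CPM with the diamond well above their median of 1542 CPM.

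The GO1 cells differed among themselves in *Tcl1* along with their depth. The 10 deepest GO1 cells summed to 3368 CPM of *Tcl1* and the other 41 to 1875 CPM, while the *Tcl1b* genes together were at 1230 and 1334 CPM. In this split the oocyte markers moved the same way as *Tcl1*, with 14199 CPM in the 10 deepest GO1 cells and 8952 CPM in the rest, and the granulosa markers were at 28.999 and 31.7 CPM. With the stage split at its median depth, the median *Tcl1* level was 1218 CPM in the 25 shallower cells and 2038 CPM in the 26 deeper ones. The medians of the *Tcl1b* sum were 1146 and 1270 CPM, and those of the oocyte markers, at 9288 and 9189 CPM, did not go with *Tcl1* in this split. In the other stages the 10 deepest cells and the rest were much closer, at 2415 and 2361 CPM of *Tcl1* for NGO, 4202 and 4044 for GO2, 3692 and 3411 for GO3 and 3516 and 3752 for FGO. Whether depth, oocyte size within the 30 to 45 μm gate or the library of a cell has a part in this was not tested.

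The share of *Tcl1* in the UMIs of the cluster summarises the different courses of the 2 kinds of gene. In the sums it was 87.8%, 71.1%, 76.1%, 76.95% and 82.3% from NGO to FGO. Over single cells, the median share was 87.999%, 56.4%, 75.8%, 77.8% and 83.8%. The NGO cells ranged from 70.7% to 95.7% and the GO1 cells from 30.4% to 78.98%. The lowest share in GO2 cells was 65.1% and the highest 83.04%. The share was thus lowest in GO1 by both measures and went back towards the NGO value by FGO, without reaching it. Within GO1, the 10 deepest cells gave 73.2% and the rest 58.4%, and both were below the 87.7% to 87.96% of the same split in NGO.

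**Figure D3:**
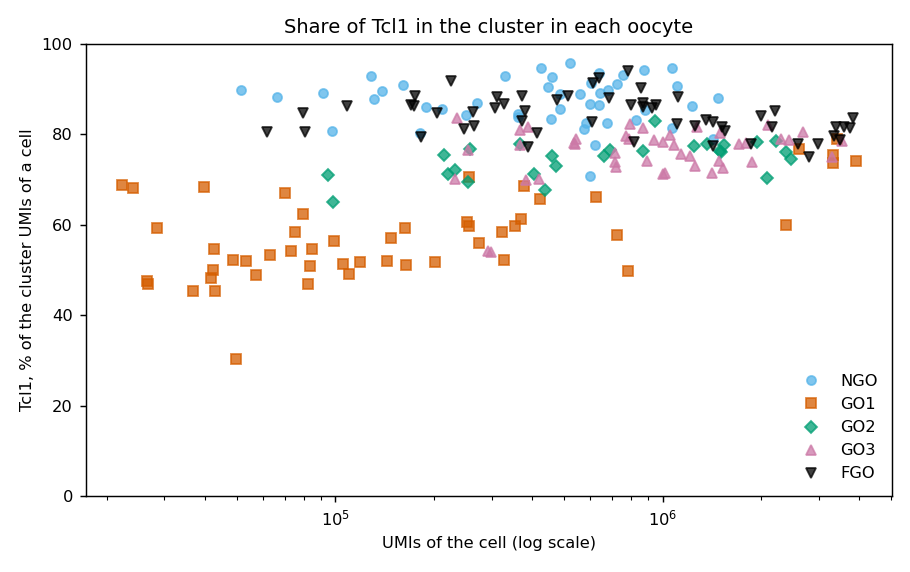
Share of *Tcl1* in the cluster UMIs of each oocyte (y axis, 0 to 100%) against the UMIs of that cell (x axis, log scale), with a colour and symbol per stage. GO1 cells lie between 30.4% and 78.98% and are the lowest over most of the depth range, while some of the deepest GO1 cells lie among the GO2, GO3 and FGO cells.

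The mix within the *Tcl1b* genes also differed between stages. *Tcl1b1* gave 45.1% of the *Tcl1b* UMIs in NGO and 48.5% to 50.5% in the 4 later stages. *Tcl1b2* gave 19.5% to 22.2% throughout. The proportion of *Tcl1b4* went from 20.3% in NGO to 11.9% in GO1 and then to 13.7%, 15.7% and 16.6% in GO2, GO3 and FGO. *Tcl1b5* went the other way, from 5.88% in NGO to 9.97% in GO1 and then to 9.06%, 8.82% and 6.79%. *Tcl1b3* held 6.76%, 6.78%, 6.62%, 5.96% and 5.10%. *Tcl1b4* had few windows in common with the other members, so its course depended least on how reads were shared within the family.

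From GO1 to GO2 no member was called in the sums, where 0.109% of 7356 genes were called higher and 3.03% lower. *Tcl1b1* was at 626 and 633.5 CPM, *Tcl1b3* at 84.7 and 86.5 CPM and *Tcl1b5* at 124.7 and 118.4 CPM, and the sign of these 3 small differences turned in 7 of the alternative values. *Tcl1* was 1.35 times as high in GO2 (95% counting interval 1.34 to 1.36). As the mean over cells *Tcl1* was 2.38 times as high, at 4245 ± 1211 CPM (SD, 26 cells) in GO2, which would pass the 2-fold limit. The lowest GO2 cell had 3027 CPM, the median 4032 and the highest 9073, and 12 of the 26 were above the highest GO1 cell while none was below the lowest. The GO2 cell at 9073 CPM stood apart from the others, as the next highest was at 6205 CPM.

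After GO2 the cluster was lower again. From GO2 to GO3 all 6 members were lower, by 1.07-fold for *Tcl1b4* to 1.40-fold for *Tcl1b2*. Of all 7334 genes, 61.6% were higher in GO3 by any amount. The median log2 ratio of the members was -0.30 against 0.08 over those genes. No member passed the limit (3.34% of all genes were called higher and 1.01% lower). *Tcl1b4* was the exception in thinned cells, where it was 1.04 times as high in GO3. From GO3 to FGO the *Tcl1b* genes were lower by 1.26-fold (*Tcl1b2*) to 1.77-fold (*Tcl1b5*, 95% counting interval 1.69 to 1.85), again with none past the limit, where 2.41% of 7622 genes were called higher and 3.54% lower. *Tcl1* was at 3543 and 3634 CPM in these stages, a ratio of 1.03 in the sums that turned to 0.981 and 0.982 with 2 other scalings. In single cells the step to FGO was clearest for *Tcl1b3*, with 34 of 56 FGO cells below the lowest GO3 cell at 38.1 CPM, and for *Tcl1b5*, with 32 of 56 below 51.4 CPM. For *Tcl1* this was so in 2 FGO cells, and 5 were above the highest GO3 cell.

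**Figure D4:**
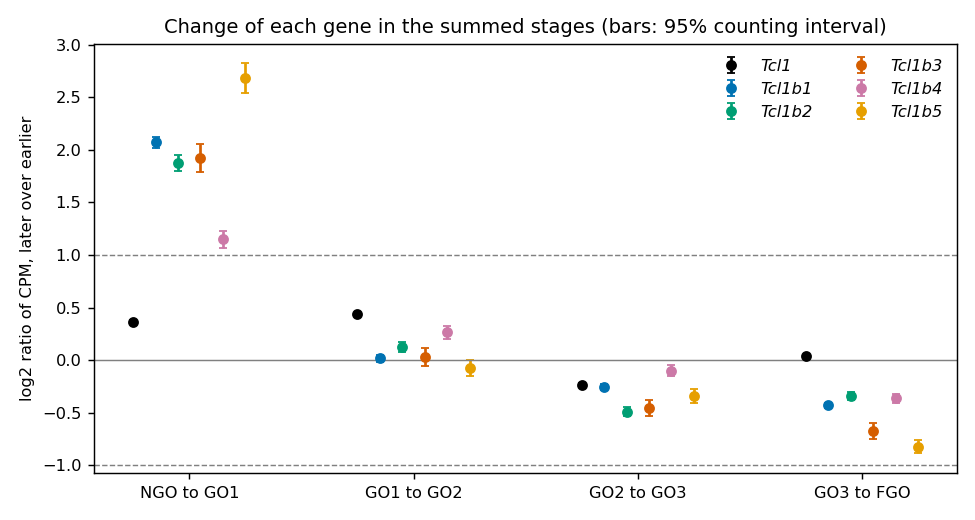
Log2 ratio of the summed CPM between consecutive stages for each gene (points; bars are 95% counting intervals and are shorter than the point where not visible; dashed lines mark 2-fold either way). The *Tcl1b* genes lie above the upper line from NGO to GO1, and in the 2 last steps they lie between 0 and -0.82 while *Tcl1* goes from -0.23 to 0.04.

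Across the growth phase, from GO1 to FGO, all 5 *Tcl1b* genes were lower at the end, by unequal factors. Of all 7873 genes, 51.4% were higher in FGO by any amount. *Tcl1b5* fell from 124.7 to 52.96 CPM, 2.35-fold (95% counting interval 2.24 to 2.47), and *Tcl1b3* from 84.7 to 39.7 CPM, 2.13-fold (2.01 to 2.26). These 2 of 6 members were called lower and 0 higher, beside 9.03% lower and 7.98% higher among all 7873 genes. *Tcl1b1*, *Tcl1b2* and *Tcl1b4* were lower by 1.59-fold, 1.63-fold and 1.15-fold, under the limit, although *Tcl1b1* passed it in thinned cells at a ratio of 0.470. *Tcl1* was 1.18 times as high in FGO as in GO1 in the sums and 2.01 times as high as the mean over cells, which would pass the limit. FGO cells nonetheless kept more of the *Tcl1b* RNAs than NGO cells. *Tcl1b5* (2.72-fold), *Tcl1b1* (2.64-fold) and *Tcl1b2* (2.25-fold) were called higher in FGO than in NGO, 3 of 6 members, where 11.3% of all 8132 genes were called higher and 16% lower. The call of *Tcl1b2* was lost as the mean over cells (1.94-fold), as the median and without the 10 deepest cells (both 1.82-fold). *Tcl1b4* at 1.93-fold and *Tcl1b3* at 1.78-fold were just under the limit, and *Tcl1* was at 1.52-fold. The comparisons with NGO share the NGO cells, and those with GO1 share the GO1 cells.

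By summed CPM, 5 of the 6 genes were highest in GO2 and *Tcl1b5* in GO1, and all 6 were lowest in NGO. Of all genes past the 10 CPM minimum, 45.7% of 8527 were higher in GO1 than in NGO by any amount. For FGO against NGO this was 44.4% of 8132. The share of all genes with the same highest or lowest stage was not counted. The order of the stages was GO2, GO1, GO3, FGO and NGO for *Tcl1b1*, *Tcl1b2* and *Tcl1b3*. *Tcl1b4* had GO3 before GO1, and *Tcl1* had GO2, FGO, GO3, GO1 and NGO. By the mean over cells the last place of *Tcl1* went to GO1 and the first place of *Tcl1b5* to GO2, so that all 6 were highest in GO2. Neighbouring stages in these orders overlapped in the range of their cells for every member.

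Over the cells of a stage, the *Tcl1b* genes varied together more than with *Tcl1*. The median Spearman correlation of CPM over the 10 *Tcl1b* pairs took the values 0.34, 0.48, 0.46, 0.54 and 0.52 in stage order, and each of the 10 was above 0 in every stage. The 5 pairs of *Tcl1* with a *Tcl1b* gene had medians of -0.07, 0.47, 0.22, -0.11 and -0.10. The 2 medians were closest in GO1. There *Tcl1* also had a correlation of 0.60 with the depth of the cell, and the *Tcl1b* genes had a median of 0.44, with -0.06 for *Tcl1b1* and 0.32 to 0.50 for the other members. In NGO, GO2, GO3 and FGO the correlation of *Tcl1* with depth was 0.21, 0.14, 0.45 and 0.18, and the median of the *Tcl1b* genes was 0.20, -0.45, 0.10 and 0.43. The 26 to 56 cells of a stage share libraries and differ in depth, and the *Tcl1b* genes can share reads. These values are descriptions without a test, and pairs of genes outside the cluster were not compared.

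**Figure D5:**
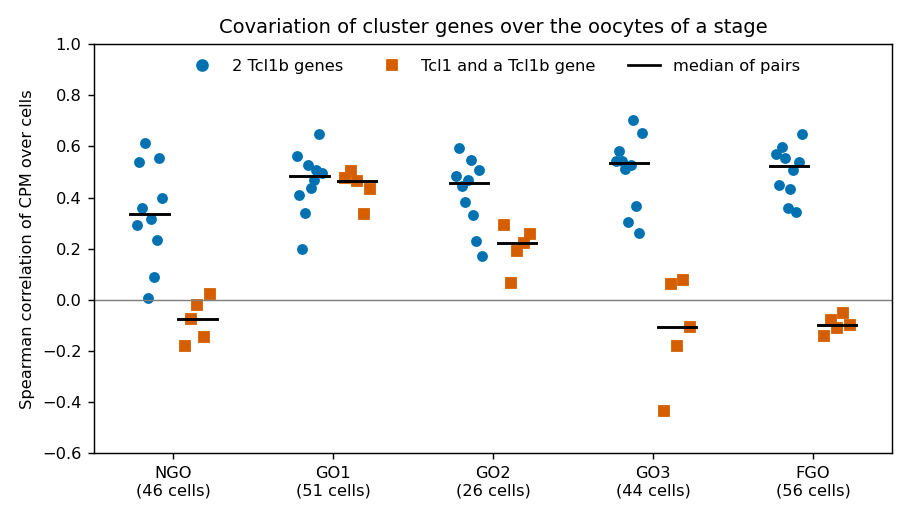
Spearman correlation of CPM over the cells of each stage for the 10 pairs of *Tcl1b* genes (blue circles) and the 5 pairs of *Tcl1* with a *Tcl1b* gene (orange squares); black bars are medians of the pairs. The blue points lie above 0 in all 5 stages, and the medians of the 2 kinds of pair are closest in GO1, at 0.48 and 0.47, with some overlap of points in NGO and GO2 too.

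The genes on both sides of the cluster were compared with it, taking the 3 nearest protein-coding genes of the table on each side. *Glrx5*, a mitochondrial glutaredoxin 105103 bases to the left, had 424.4, 720.5, 744.9, 783.2 and 615.9 CPM from NGO to FGO, with a ratio of 1.70 from NGO to GO1. *Dicer1*, which cuts small RNA precursors, had 377.9, 721.4, 612.5, 637.3 and 580.7 CPM and a ratio of 1.91. Both were thus higher in GO1 but below the limit. *Bdkrb1*, a bradykinin receptor gene to the right, was called higher at 2.2-fold (9.45 to 20.8 CPM), and its neighbour *Bdkrb2* had 1 UMI in all 223 cells, in GO3. *Atg2b*, a lipid transfer protein of autophagy, had 8.21 CPM in NGO and 13.5 in GO1. *Clmn*, which encodes an actin-binding protein and lies between *Glrx5* and *Dicer1*, had 9.13 CPM in NGO and 0.822 in GO1 and did not reach 10 CPM in any stage. None of the 5 neighbours with a UMI in NGO or GO1 had a ratio from NGO to GO1 as high as that of the least raised *Tcl1b* gene, *Tcl1b4* at 2.22, although that of *Bdkrb1* was close to it and the intervals overlapped (1.89 to 2.57 and 2.09 to 2.35). *Mtcp1*, the remaining gene of the TCL1 family, lies outside the cluster and was looked up after the other values were seen. It had 0.240 to 0.714 CPM in the 5 stages, with UMIs in 4 to 11 cells of each.

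Genes with the stage profile most like the cluster were sought among 8665 genes, as the root mean square difference of centred log2(CPM + 1) over the 5 stages. The 5 nearest to the sum of the cluster were *Sirt4* (0.0442), *Btrc* (0.0500), *Ccndbp1* (0.0560), *Polr2c* (0.0578) and *H13* (0.0603). That sum mostly follows *Tcl1*. The 5 nearest to the sum of the *Tcl1b* genes were *Pkn2*, *Ing1*, *Armcx5*, *Lrr1* and *Nanos2*, with differences of 0.0420 to 0.0611, and were named after their values were seen. Many genes had such profiles, since *Tcl1b2* was only the 21st nearest gene to *Tcl1b1* and *Tcl1b3*, *Tcl1b5* and *Tcl1b4* were at ranks 160, 252 and 510, while *Tcl1* was at rank 2040 of 8670. Seen from *Tcl1*, *Tcl1b4* was the closest member, at rank 1495, and *Tcl1b5* the farthest, at rank 6669.

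The AKT pathway, on whose kinases TCL1 proteins act, was also followed as RNA. From NGO to GO1 its genes were called at shares near or below those of all genes. All 30 listed genes were in the table, and 20 reached 10 CPM in NGO or GO1. Of these, 3 were called higher in GO1 and 4 lower, beside 20.6% and 25.7% of all genes, and their median log2 ratio was 0.06 against -0.15 over all genes. *Foxo1*, a transcription factor that AKT keeps out of the nucleus, rose from 28.8 to 126.3 CPM (4.39-fold). *Pik3ca*, a catalytic subunit of PI3-kinase, rose 3.36-fold (11.8 to 39.5 CPM), and *Rictor*, a subunit of the kinase complex mTORC2, rose 2.53-fold (11.7 to 29.6 CPM). *Pik3r2*, a regulatory PI3-kinase subunit, fell from 20.3 to 3.07 CPM, and *Bad*, a cell death protein that AKT phosphorylates, from 18.7 to 3.10 CPM. The fourth gene called lower was *Akt1s1*, an inhibitor of mTORC1, at 154.3 and 63.7 CPM, which is named because only 4 genes were called lower.

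The kinase gene *Akt2* fell from 57.1 CPM in NGO to 12.8 in GO1, or 4.46-fold (95% counting interval 3.96 to 5.04), and was at 8.01, 11.3 and 17.2 CPM in GO2, GO3 and FGO. As the mean over cells *Akt2* was at 60.5 CPM in NGO and 7.89 CPM in GO1, where the median cell was at 0. *Akt1* was at 17.9, 19.5, 10.8, 14.7 and 14.7 CPM. From GO1 to FGO, 18 of the listed genes reached 10 CPM in either stage. Of these, 1 was called higher and 4 lower, beside 7.98% and 9.03% of all 7873 genes. *Pik3r2* was the gene called higher. Those called lower included *Foxo1*, *Pik3ca* and *Rictor*, by 2.28-fold, 2.23-fold and 2.30-fold. *Akt2* fell in the step in which the *Tcl1b* RNAs rose, from NGO to GO1. In that step 25.7% of all 8527 genes were called lower, and *Akt1* had a ratio of 1.09. A link between *Akt2* and the *Tcl1b* genes was not tested, and no protein was measured.

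Since *Tcl1* is also a gene of lymphoid cells, the levels of lymphocyte markers were set beside it. From NGO to FGO the 11 markers summed to 12.5, 104.7, 85.04, 49.6 and 10.1 CPM, with a range over cells of 0 to 164.0 CPM in GO1. Nearly all of this was *Ms4a1*, which encodes the B-cell antigen CD20, with 10.99, 102.7, 82.6, 48.4 and 9.56 CPM. No other lymphocyte marker reached 10 CPM in any stage. *Cd79b*, *Rag1* and *Rag2* were at 0 in all 223 cells, which with 3 UMIs as the limit of a 0 allows up to 0.0466 CPM in FGO and 0.120 CPM in GO2, and *Ptprc*, the pan-leukocyte CD45, was at 0 in all stages but GO3. The part of lymphocyte RNA in the level of *Tcl1* was not tested.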

How the data were processed

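The single-cell RNA-seq of 223 oocytes was used. The authors assigned reads to cells, mapped them with Tophat against mm9 transcripts (mm9 is the same assembly as NCBIM37) and collapsed copies by UMI, and the deposited values are raw counts of UMIs per gene and cell, for cells that had passed the filters of the study on detected genes, transcripts and spike-in share. ERCC spike-ins, chromatin accessibility and DNA methylation were not analysed here. The columns name the stage of a cell and neither its library nor its barcode, so barcodes shared by libraries were not counted, and the cells of a stage were summed as 1 pool. Whether cells of a stage came from separate mice is not given in the sources used here. No doublet caller was run, since oocytes were picked singly.

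CPM were taken over the stage total (24976634 to 64311908 UMIs), with exact Poisson intervals. Ratios carry exact intervals from the binomial split of 2 counts. These intervals leave out the spread between oocytes, mice and libraries. The size rule (2-fold, 10 CPM) was run on the whole table. It was tried on simulated stage sums with counting error only and planted changes larger than the limit. Such sums do not hold the spread between oocytes, mice and libraries. For lengths and windows, the longest transcript with a whole reading frame in GENCODE vM1 was used, except for *Tcl1b4*, where the transcript with an intron of 2 bases was left out. Promoters and coding sequences were aligned pairwise with Biopython 1.88. Alternatives were TMM factors (edgeR 4.0.16) and median-of-ratios size factors (DESeq2 1.42.0), both for scaling only, the mean and median over cells, cells thinned to 20000 UMIs (no cell was left out), sums that leave out the 10 deepest cells per stage, only cells with at least 100000 UMIs, and limits of 1.5-fold, of 50 CPM and without a count minimum. The genes named are the members, the 3 nearest protein-coding genes on each side, the 5 genes nearest in profile to the cluster sum, *Akt1* and *Akt2* with the 3 largest rises and 3 largest falls of a list of 30 AKT pathway genes, and markers of other cell types that reached 10 CPM. Some results of the AKT list are not reported here. Members and lists were chosen with earlier results of these data known. R 4.3.3 and Python 3.11.15 were used, with scipy 1.17.1, pandas 2.3.3 and numpy 2.4.6, and matplotlib 3.10.9 drew the figures.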

Additional observations from a re-analysis of the deposited data

How the results depend on the processing

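The call of 5 *Tcl1b* genes higher in GO1 than in NGO held in all settings run, and so did the place of GO1 as the stage with the lowest *Tcl1* share. Other counts moved. Against 0 members higher in GO2 than in GO1, 1 (*Tcl1*) was called as the mean or median over cells, in thinned cells and without the 10 deepest cells of each stage. Against 0 lower in GO3 than in GO2, 1 was called in thinned cells. Against 0 lower in FGO than in GO3, 1 (*Tcl1b5*) was called as the mean over cells and in thinned cells, and 2 at 1.5-fold. Against 3 higher in FGO than in NGO, 5 were called with TMM factors and in thinned cells, 6 at 1.5-fold, 4 with DESeq2 size factors, and 2 as the mean or median over cells and without the 10 deepest cells, where *Tcl1b2* was lost. Between GO1 and FGO, 1 member was called higher against 0 as the mean or median over cells and without the 10 deepest cells, and 4 were lower against 2 at 1.5-fold and 3 in thinned cells. Without the 10 deepest cells 3 members were highest in GO2, against 5. From NGO to GO1 the ratio of *Tcl1b3* was 3.79 and reached 7.94 in thinned cells, where only 9 of 46 NGO cells had a UMI of it. The share of *Tcl1* in the cluster as the mean over cells was 87.2%, 57.65%, 74.6%, 75.9% and 83.97% from NGO to FGO, and 56.4%, 75.8%, 77.8% and 83.8% from GO1 to FGO as the median. In thinned cells it was 90.05%, 59.5%, 74.6%, 77.4% and 84.3%, and without the 10 deepest cells 58.4%, 75.2%, 76.2% and 84.3% from GO1 to FGO. In cells with at least 100000 UMIs it was 71.5% in GO1. The cause of these moves was not tested. Among all genes, the number called higher in GO2 than in GO1 went from 8 to between 3 (50 CPM) and 1407 (no count minimum), and the number lower in GO1 than in NGO from 2193 to between 966 and 5491 in the same 2 settings. Relative to total UMIs, TMM factors shifted the log2 ratios of all genes by 0.16 from NGO to GO1 and by 0.17 from GO1 to GO2, and DESeq2 size factors by 0.10 and 0.19, with -0.15 from GO2 to GO3. No paired analysis was possible because the columns of the table do not name the library of a cell. Depth limits *Tcl1b3*, *Tcl1b4* and *Tcl1b5* in single shallow cells, where 1 UMI can be the whole count.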

Other observations

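Spread over cells differed between the genes and stages. The coefficient of variation of *Tcl1* over cells took the values 31.1%, 53.7%, 28.5%, 14.4% and 20.1% in stage order, and that of *Tcl1b1* was 43.8%, 43.4%, 32.2%, 20.8% and 30.4%. Both were most even in GO3, where the sum of the cluster varied by 9.87% around 4474 CPM, against 40.6% around 2988 CPM in GO1. *Tcl1b3* and *Tcl1b5*, the lowest genes of the cluster, varied by 31.6% to 68.1% over the stages. Counting error has a larger part in low genes and in shallow cells, so these figures were not compared further.

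The 2 GO2 cells highest in *Tcl1b1*, at 1520 and 1277 CPM, were chosen after their values were seen. The second of them was also the GO2 cell highest in *Tcl1*.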
